A study of Mus musculus with 8 samples.

Results

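Read counts of 7 genes tied to the CD8-bearing state of intestinal CD4 T cells were followed in 8 mouse RNA sequencing libraries: both CD8 chains (Cd8a and Cd8b1), the transcription factor genes Zbtb7b and Runx3, and the receptor genes Crtam, Klrd1 and Cd244. The genes were taken by symbol, 7 of 53657 genes present in every library; Cd244 is listed as Cd244a, of which RefSeq gives Cd244 as a synonym. Cd8a was selected on its colon genotype difference, known beforehand as a strong fall in knockout colon cells, with Cd8b1 beside it. The other 5 were also chosen with the colon genotype difference in view. The colon genotype difference is therefore described for all 7 genes without a test, while culture and the colon set against culture were tested. All 7 passed the filter on low counts in the colon fit and 5 of 7 in the culture fit, where Cd8a and Cd244 did not.

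Knockout cells came from Cd4_cre Rora_fl/fl mice, in which a Cre recombinase driven by Cd4 acts on floxed alleles of Rora, the gene of the nuclear receptor RORα. Control cells, labelled WT, came from Rora_fl/fl mice, which carry the floxed alleles without Cre. For colitis, Tcrbd-/- mice, which lack T cells of their own but keep B cells and innate lymphocytes, received naive CD4+ T cells of 1 genotype, and colon CD4+ T cells were collected 6 weeks later, giving 2 knockout and 2 control libraries. For culture, antibodies to CD3 and CD28 activated naive CD4+ T cells, which were grown for 4 days toward the Th17 fate in IL-6, IL-1β plus IL-23 (the IL-23 mix), or in TGFβ plus IL-6 (the TGFβ mix), giving 1 knockout and 1 control library per cytokine mix. All cells of both experiments received PMA and ionomycin, which activate T cells, for 2 hours before RNA was extracted.

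CD4 T cells are held in their lineage by ThPOK, the product of Zbtb7b, which represses CD8 genes, whereas RUNX3 represses Zbtb7b and Cd4 and turns on CD8 genes. In the gut epithelium some CD4 T cells lose ThPOK, gain RUNX3 and T-bet, and display the CD8αα homodimer together with cytotoxic and NK-type molecules. CD8αα needs no CD8β chain and binds the epithelial class I molecule TL, while the CD8αβ heterodimer is the coreceptor of conventional CD8 T cells.

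Libraries held 13176752 to 15922696 counts. Rora, the deleted gene, measured 146 and 163 CPM in knockout colon cells, against 277 and 320 CPM in control colon cells (CPM, counts relative to a library total scaled by TMM over all 8 libraries). It measured 53.6 CPM in knockout and 138 CPM in control cells with the IL-23 mix, and 172 CPM in knockout and 453 CPM in control cells with the TGFβ mix. Its log2 fold change was -0.94 ± 0.09 (SE) in colon and -1.38 ± 0.07 in culture, with adjusted p of 2.39e-05 and 0.000404 (edgeR quasi-likelihood, Benjamini-Hochberg). The sources used here do not say whether colon replicates are different mice, so the p-values reflect spread among these libraries, which may be technical. They also do not state which part of Rora is floxed, and reads from the rest of the gene may persist. Cd4, the marker of the labelled cells, measured 1030 and 900 CPM in knockout colon cells and 1130 and 1090 CPM in control colon cells. Of 13 conventional T cell markers, 0 were higher and 11 lower in knockout colon cells (6 lower when library totals replaced TMM), and their summed level was 8950 to 9170 CPM in knockout and 11600 to 12200 CPM in control colon cells. Over all 13101 genes tested in the colon, 39.5% were called at 0.05 after Benjamini-Hochberg adjustment of edgeR's quasi-likelihood test, 19.6% higher and 19.9% lower in knockout cells. In RNA of pooled cells, fewer cells of a type and less RNA per cell cannot be told apart.

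Promoter sequences of the genes that moved most apart in the colon, Cd8a and Cd244, and of the regulators Runx3 and Zbtb7b are shown as RefSeq gives them on GRCm38.p6, from 250 bases before to 50 after a gene start. They lie at chr6:71373177-71373476 (plus strand) for Cd8a, chr1:171558943-171559242 (plus) for Cd244, chr4:135120395-135120694 (plus) for the upstream start of Runx3, and chr3:89387622-89387921 (minus) for the Zbtb7b start that holds a match. Capitals mark the RUNX core TGTGGT or its reverse complement ACCACA.
Cd8a: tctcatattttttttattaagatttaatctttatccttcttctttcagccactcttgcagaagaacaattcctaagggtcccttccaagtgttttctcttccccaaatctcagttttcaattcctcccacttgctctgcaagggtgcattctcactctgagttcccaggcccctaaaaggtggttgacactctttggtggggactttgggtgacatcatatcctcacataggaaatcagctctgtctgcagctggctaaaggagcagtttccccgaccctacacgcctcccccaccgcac
Cd244: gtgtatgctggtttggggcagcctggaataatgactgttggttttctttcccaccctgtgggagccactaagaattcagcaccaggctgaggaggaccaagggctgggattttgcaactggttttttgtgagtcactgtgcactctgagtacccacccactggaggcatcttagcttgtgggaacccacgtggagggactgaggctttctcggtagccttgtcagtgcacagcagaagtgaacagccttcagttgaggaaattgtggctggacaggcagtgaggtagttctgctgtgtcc
Runx3: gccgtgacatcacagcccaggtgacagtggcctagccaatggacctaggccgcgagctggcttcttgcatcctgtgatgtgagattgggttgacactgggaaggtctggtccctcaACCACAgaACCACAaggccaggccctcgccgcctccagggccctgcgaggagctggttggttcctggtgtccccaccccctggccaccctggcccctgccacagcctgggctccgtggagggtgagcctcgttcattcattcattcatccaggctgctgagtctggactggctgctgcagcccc
Zbtb7b: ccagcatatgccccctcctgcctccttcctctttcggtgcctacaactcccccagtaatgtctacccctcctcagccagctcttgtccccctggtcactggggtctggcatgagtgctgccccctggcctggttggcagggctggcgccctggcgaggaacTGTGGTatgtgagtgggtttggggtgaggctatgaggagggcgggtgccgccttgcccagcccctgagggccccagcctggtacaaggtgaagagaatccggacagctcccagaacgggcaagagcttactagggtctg
The Runx3 window held 2 matches separated by a short spacer, the Zbtb7b window held 1, and the Cd8a and Cd244 windows held 0. The core of the ROR response element, AGGTCA or TGACCT, had 0 matches in each of these windows, searched on both strands. Among 32851 RefSeq promoters of the same length, 16.8% held the RUNX letters and 16.3% the ROR letters, so a match is common. The other listed start of Runx3 (chr4:135152295-135152594) and of Zbtb7b (chr3:89393329-89393628) held 0 matches to either. A match describes letters only and marks no bound site.

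Cd8a encodes the CD8α chain and lies on chromosome 6 at 71373427 to 71379173 in mm10, on the plus strand. It had 30 and 32 counts in the knockout colon libraries, against 248 and 245 counts in the control colon libraries. As a level this was 2.24 and 2.27 CPM in knockout and 22.1 and 19.3 CPM in control colon cells. Both knockout libraries were far below both control libraries, and within each genotype the libraries were close. The knockout mean of 2.25 ± 0.0192 CPM was 10.9% of the control mean of 20.7 ± 2.01 CPM (SD, n = 2 each). The log2 fold change was -3.19 ± 0.18 (SE), given as a description because Cd8a was chosen for it. Set against Cd4 in the same library, Cd8a had 2.17 and 2.52 counts per 1000 Cd4 counts in knockout colon cells and 19.5 and 17.6 in control colon cells.

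Cd8a had 0 counts in each of the 4 cultured libraries, for which the 95% Poisson limit is 3.69 counts per library. Mean Cd8a was 12.5-fold a floor of 3 counts per library, set at 0.18 CPM, in knockout and 115-fold in control colon cells. The floor lies below the Poisson limit, and the ratios leave out the error of the colon counts. Cd8a was thus detected in the colon libraries alone, in both genotypes, and was too low in culture for any test of genotype or cytokines there.

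Cd8b1, for the CD8β chain, lies upstream of Cd8a on the same strand (71322788 to 71337494), with 35932 bases between the genes, and did not share its pattern. It had 15 and 27 counts in the knockout colon libraries and 18 and 29 counts in the control colon libraries. These are 1.12 and 1.91 CPM in knockout and 1.61 and 2.28 CPM in control colon cells, so the genotypes overlapped. Its log2 fold change of -0.35 ± 0.36 (SE) was no larger than its error and turned to 0.03 when scaled to T cell marker counts. Per length of exon, Cd8a stood at 0.816 and 0.483 times Cd8b1 in knockout colon cells and at 5.62 and 3.44 times in control colon cells. An excess of CD8α over CD8β transcripts was thus present in control colon libraries and not in knockout ones.

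In culture the order of the chains was the other way, with Cd8b1 detected in every library where Cd8a had 0 counts. Cd8b1 measured 6.92 CPM (117 counts) in knockout and 9.12 CPM (152 counts) in control cells with the IL-23 mix. With the TGFβ mix it measured 3.77 CPM (66 counts) in knockout and 2.93 CPM (51 counts) in control cells. Each culture was above each colon library, and the colon average was lower than the culture average by a log2 difference of -1.58 ± 0.21 (SE; edgeR quasi-likelihood, Benjamini-Hochberg adjusted p = 4.92e-06). Colon and cultured libraries also differed in how their files were annotated, so cell source and processing cannot be told apart in such a difference.

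**Figure D1:**
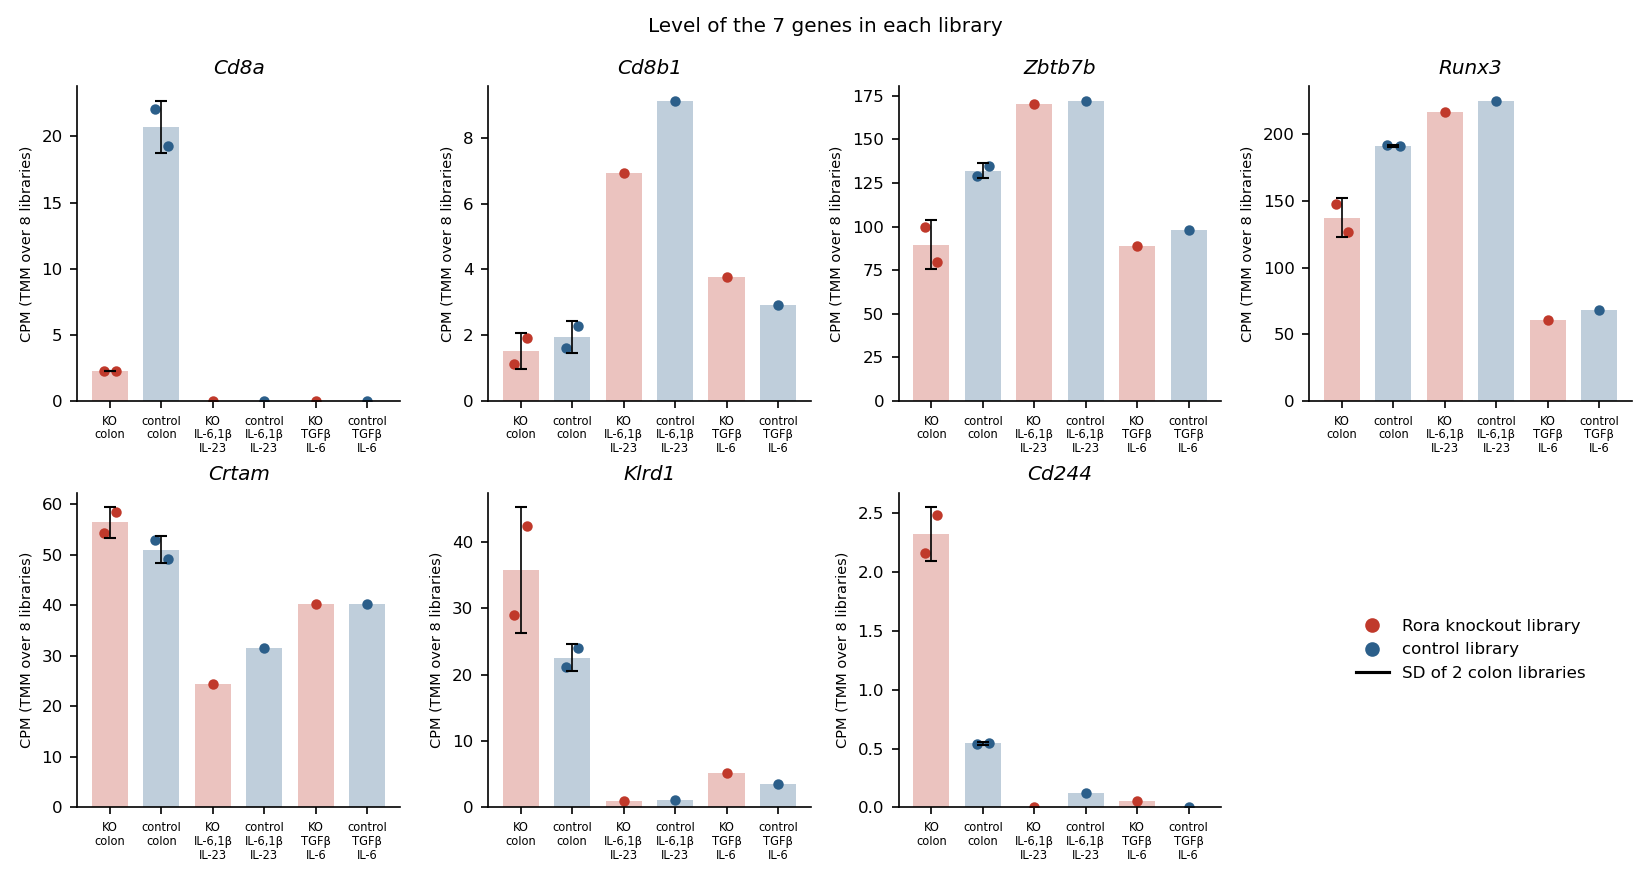
Levels of the 7 genes in CPM (TMM-scaled over 8 libraries), 1 panel per gene with its own linear axis. Points are libraries, bars are group means and whiskers are the SD of 2 colon libraries; each cultured condition has 1 library. Cd8a is at 2.25 CPM in knockout colon cells, 20.7 CPM in control colon cells and 0 in culture, and Cd8b1 is highest in culture.

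Zbtb7b, for ThPOK (chromosome 3, 89377644 to 89394776, minus strand), had 1336 and 1124 counts in knockout and 1445 and 1716 counts in control colon libraries. Its level was 99.7 and 79.6 CPM in knockout colon cells, against 129 and 135 CPM in control colon cells. Neither knockout library reached a control library, and the knockout libraries differed more from each other (89.7 ± 14.2 CPM) than the control ones (132 ± 4.32 CPM; SD, n = 2 each). The log2 fold change was -0.55 ± 0.10 (SE), which left 67.9% of the control mean.

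Runx3 (chromosome 4, 135120652 to 135177990, plus strand) had 1987 and 1799 counts in knockout and 2154 and 2428 counts in control colon libraries. Its level was 148 and 127 CPM in knockout colon cells, against 192 and 191 CPM in control colon cells. The log2 fold change was -0.47 ± 0.09 (SE), 71.9% of the control mean, so the opposing regulators were lower by similar amounts. The ratio of Zbtb7b to Runx3 per exon length stayed close, at 0.602 and 0.559 in knockout and 0.6 and 0.632 in control colon cells. Both differences shrank when the counts were set against T cell genes. Scaled to Cd4 counts, the log2 ratio was -0.36 for Zbtb7b and -0.27 for Runx3, and with library totals -0.36 and -0.28. Scaled to T cell marker counts, it was -0.17 for Zbtb7b, -0.09 for Runx3 and -2.81 for Cd8a. Such a scaling divides every gene by the same counts, and it also moved Crtam from 0.15 to 0.54. The fall of the T cell markers moved with the differences of Zbtb7b and Runx3, and its part in them was not tested. Antisense genes overlap both regulators, and the sources used here do not say whether counting used strand. That of Zbtb7b shares 116 exon bases with it and had 7 to 31 counts per library, and that of Runx3 shares 0.

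Crtam, an adhesion receptor gene of activated T and NK cells whose product marks CD4 cells able to turn cytotoxic, lies on chromosome 9 (40969691 to 41004628, minus strand). It measured 54.3 and 58.5 CPM in knockout colon cells and 52.9 and 49.2 CPM in control colon cells. The genotypes did not overlap but lay close together, at 56.4 ± 2.94 CPM in knockout and 51.1 ± 2.64 CPM in control colon cells (SD, n = 2 each), with a log2 fold change of 0.15 ± 0.09 (SE).

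Klrd1 encodes CD94, which pairs with NKG2 receptors to recognise Qa-1, and lies on chromosome 6 (129591782 to 129598775, plus strand). It measured 29.0 and 42.4 CPM (388 and 598 counts) in knockout colon cells, against 21.1 and 24 CPM (237 and 305 counts) in control colon cells. Both knockout libraries were above the control ones, and knockout replicate 2 stood well above knockout replicate 1. The log2 fold change of 0.66 ± 0.16 (SE) became 0.35 without knockout replicate 2. Klrc1, the gene of the partner chain NKG2A, went the other way, with 52.6 and 61.7 CPM in knockout and 110 and 123 CPM in control colon cells. Klrd1 had 0.55 and 0.687 counts per Klrc1 count in knockout colon cells and 0.192 and 0.195 in control colon cells. Klrc1 has close paralogs that may share reads.

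Cd244, the gene of the SLAM-family receptor that binds CD48, lies on chromosome 1 (171559193 to 171609746, plus strand) and was rare. It had 29 and 35 counts in the knockout colon libraries, against 6 and 7 counts in the control colon libraries. That is 2.16 and 2.48 CPM in knockout and 0.535 and 0.551 CPM in control colon cells, a knockout mean 4.27-fold the control mean. The log2 fold change was 2.08 ± 0.39 (SE). Cd244 overlaps Ly9 on the opposite strand with 0 shared exon bases. Ly9 had 446 and 486 counts in knockout and 195 and 222 counts in control colon libraries, but 1450 to 1884 counts in culture, where Cd244 had at most 2.

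The genes furthest from no difference between genotypes in the colon, in either direction, were Cd8a and Cd244. Per exon length, control colon cells ranked Runx3 (38.3 ± 0.158 RPKM), Zbtb7b (23.6 ± 0.773), Klrd1 (17.6 ± 1.58), Crtam (9.95 ± 0.514), Cd8a (5.69 ± 0.554), Cd8b1 (1.31 ± 0.322) and Cd244 (0.111 ± 0.00225; SD, n = 2 each), and each neighbour pair was further apart than these SDs. In knockout colon cells Klrd1 (27.8 ± 7.39 RPKM) and Runx3 (27.6 ± 2.95) were level, followed by Zbtb7b (16 ± 2.54) and Crtam (11 ± 0.574). Cd8b1 (1.02 ± 0.378 RPKM) and Cd8a (0.619 ± 0.00529) came next, with a gap near the SD of Cd8b1, and Cd244 was at 0.476 ± 0.0456 RPKM (SD, n = 2 each).

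**Figure D2:**
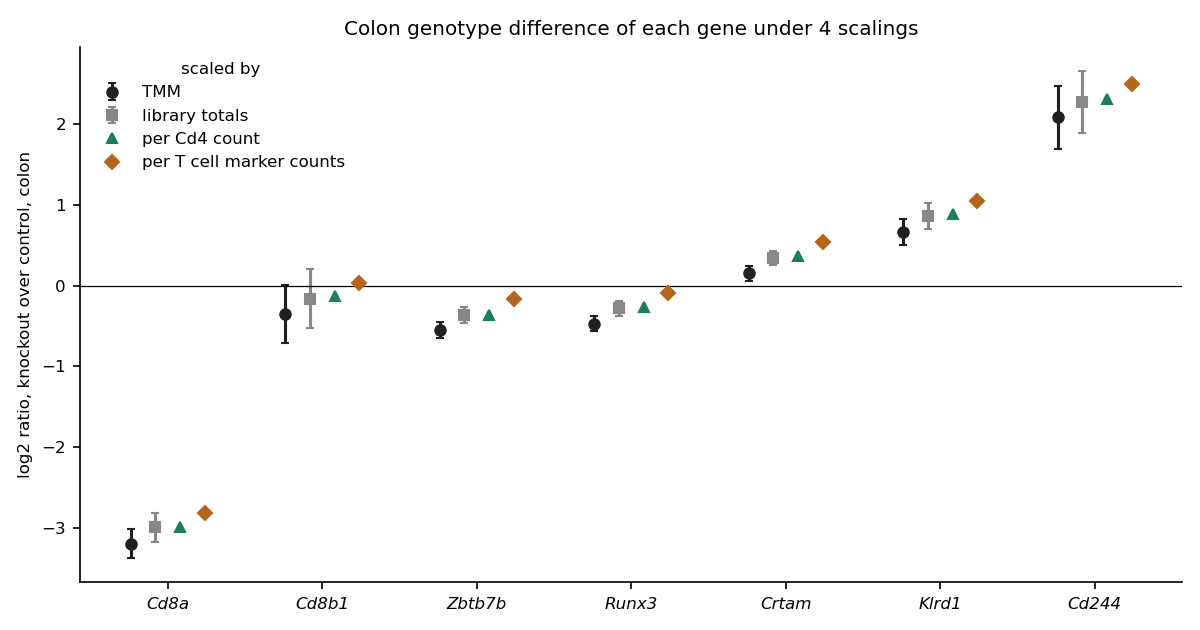
Colon log2 ratio of knockout over control for each gene under 4 scalings; whiskers, where drawn, are the SE of the fit. Cd8a stays between -3.19 and -2.81 and Cd244 between 2.08 and 2.49. Scaling to T cell marker counts moved every gene upward, Zbtb7b to -0.17 and Runx3 to -0.09.

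Markers of other cells that bear these genes were set beside the colon differences. Of all 13101 genes tested in the colon, 39.5% were called, 19.6% higher and 19.9% lower, so a call among a few markers is common. Of 12 dendritic cell markers, some of whose bearers carry CD8α, 8 were tested, 4 were higher and 2 lower in knockout colon cells, with a summed level of 559 to 591 CPM in knockout and 400 to 405 CPM in control cells. Clec9a, Siglech and Cd209a had 0 to 2 counts in every colon library, and Xcr1 had 428 and 516 counts in knockout and 491 and 514 counts in control libraries. The 2 lower were Xcr1 (log2 fold change -0.29, adjusted p = 0.0464), a marker of CD8α-bearing dendritic cells, and Zbtb46 (-0.52, adjusted p = 0.0151; edgeR quasi-likelihood, Benjamini-Hochberg), the same direction as Cd8a. The 4 higher were H2-Aa (1.09), Itgax (0.91), H2-Ab1 (0.64) and Cd74 (0.57), the opposite direction to Cd8a, and with library totals 4 were higher and 0 lower. Their part in the Cd8a difference was not tested. Of 12 NK cell and ILC1 markers, 8 were tested, 3 were higher and 1 lower, with a summed level of 684 to 767 CPM in knockout and 220 to 223 CPM in control cells, most of it from Gzma. The NK receptor genes Klra8, Klra4, Klra7 and Klra9 had 0 to 4 counts in the colon libraries. Ncr1 had 15 and 14 counts in knockout and 2 and 3 in control libraries, and Klrb1c had 19 and 37 in knockout and 23 and 48 in control libraries. The 3 higher were Gzma (log2 fold change 1.99), Ncr1 (2.29, adjusted p = 0.00975) and Itga2 (1.06, adjusted p = 0.000242), and the 1 lower was Eomes (-0.73, adjusted p = 0.000662; edgeR quasi-likelihood, Benjamini-Hochberg). Klrb1c (-0.53, adjusted p = 0.271) and Klrb1b (-0.15, adjusted p = 0.565) did not pass, so markers of this list stood on both sides of 0. Their part in the differences of Klrd1 and Cd244 was not tested.
Of 6 γδ T cell markers, 4 were found and 2 tested, both higher. Trdc had 66 and 77 counts in knockout and 12 and 25 counts in control libraries. Blk had 55 and 47 counts in knockout and 17 and 9 counts in control libraries. The recipient mice lack T cells of their own, and the source of these reads was not tested. Markers of epithelium (9 of 10 tested higher, summed level 150 CPM in knockout and 54.9 to 58.4 CPM in control cells), of B and plasma cells (5 of 6 higher, 2270 to 2460 CPM in knockout and 626 to 637 CPM in control cells) and of macrophages (5 of 9 higher, 83.1 to 83.2 CPM in knockout and 57.3 to 62 CPM in control cells) were also higher, with 0 lower in each of these 3 lists. Krt20 had 8 and 9 counts in knockout and 0 in control libraries.

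In culture the genotype difference of the 5 genes with enough counts was small, and 0 of 5 passed. Log2 fold changes of knockout over control were -0.10 ± 0.22 (SE) for Cd8b1, -0.08 ± 0.07 for Zbtb7b, -0.10 ± 0.07 for Runx3, -0.17 ± 0.11 for Crtam and 0.32 ± 0.28 for Klrd1. The lowest unadjusted p of the 5 was 0.149 (Crtam), and each adjusted p was 1 (edgeR quasi-likelihood, Benjamini-Hochberg). DESeq2 also called 0 of them. Over all 13983 genes tested 4 passed, or 0.0286% (0.0143% higher and 0.0143% lower), against 500 at an unadjusted p under 0.05, so this comparison called few genes of any kind.
Within each mix, single libraries were compared, with 95% intervals that cover counting error only. With the IL-23 mix, Crtam had 414 counts in knockout and 527 in control cells, a scaled ratio of 0.774 (0.679 to 0.883), and Cd8b1 had a ratio of 0.759 (0.591 to 0.972). With the TGFβ mix the ratio was 1 (0.9 to 1.11) for Crtam and 1.28 (0.878 to 1.89) for Cd8b1. Zbtb7b had knockout over control ratios of 0.985 (0.935 to 1.04) with the IL-23 mix and 0.907 (0.847 to 0.973) with the TGFβ mix, and Runx3 had 0.965 (0.922 to 1.01) with the IL-23 mix and 0.89 (0.818 to 0.967) with the TGFβ mix. Klrd1 had ratios of 0.83 (0.399 to 1.7) with the IL-23 mix and 1.46 (1.04 to 2.05) with the TGFβ mix. No gene of the 5 was raised or lowered beyond counting error in both mixes.

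All 5 genes differed between the cytokine mixes. Runx3 measured 217 CPM in knockout and 225 CPM in control cells with the IL-23 mix, against 60.9 CPM in knockout and 68.4 CPM in control cells with the TGFβ mix. It was higher in the IL-23 mix by 1.77 ± 0.07 on the log2 scale (SE; edgeR quasi-likelihood, Benjamini-Hochberg adjusted p = 3.14e-07), the largest rise of the 5. Zbtb7b measured 170 CPM in knockout and 172 CPM in control cells with the IL-23 mix, against 88.9 CPM in knockout and 98.0 CPM in control cells with the TGFβ mix. Its difference was 0.87 ± 0.07 (adjusted p = 1.08e-05). Runx3 rose further than Zbtb7b, and Zbtb7b per Runx3 on an exon-length scale was 0.701 (knockout) and 0.687 (control) with the IL-23 mix, against 1.31 (knockout) and 1.28 (control) with the TGFβ mix. Cd8b1 rose by 1.25 ± 0.22 (adjusted p = 0.00101), 1.84-fold in knockout and 3.11-fold in control cells.

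The receptor genes were lower with the IL-23 mix. Klrd1 measured 0.947 CPM (16 counts) in knockout and 1.14 CPM (19 counts) in control cells with that mix, against 5.19 CPM (91 counts) in knockout and 3.57 CPM (62 counts) in control cells with the TGFβ mix. Its log2 fold change was -2.05 ± 0.29 (SE; edgeR quasi-likelihood, Benjamini-Hochberg adjusted p = 0.000281). Klrc1 rose by 1.66 on the log2 scale (adjusted p = 0.000436). Klrd1 per Klrc1 count was thus 0.2 in knockout and 0.226 in control cells with the IL-23 mix, against 2.84 in knockout and 2.82 in control cells with the TGFβ mix. Crtam measured 24.5 CPM in knockout and 31.6 CPM in control cells with the IL-23 mix, against 40.2 CPM in each genotype with the TGFβ mix, a log2 fold change of -0.53 ± 0.11 (adjusted p = 0.00232). Of the 5 genes, 3 were higher and 2 lower, while 69.8% of all 13983 genes tested passed (35.8% higher and 34% lower), so a call is common here. Cd244 had 0 to 2 counts per cultured library and could not be compared.

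**Figure D3:**
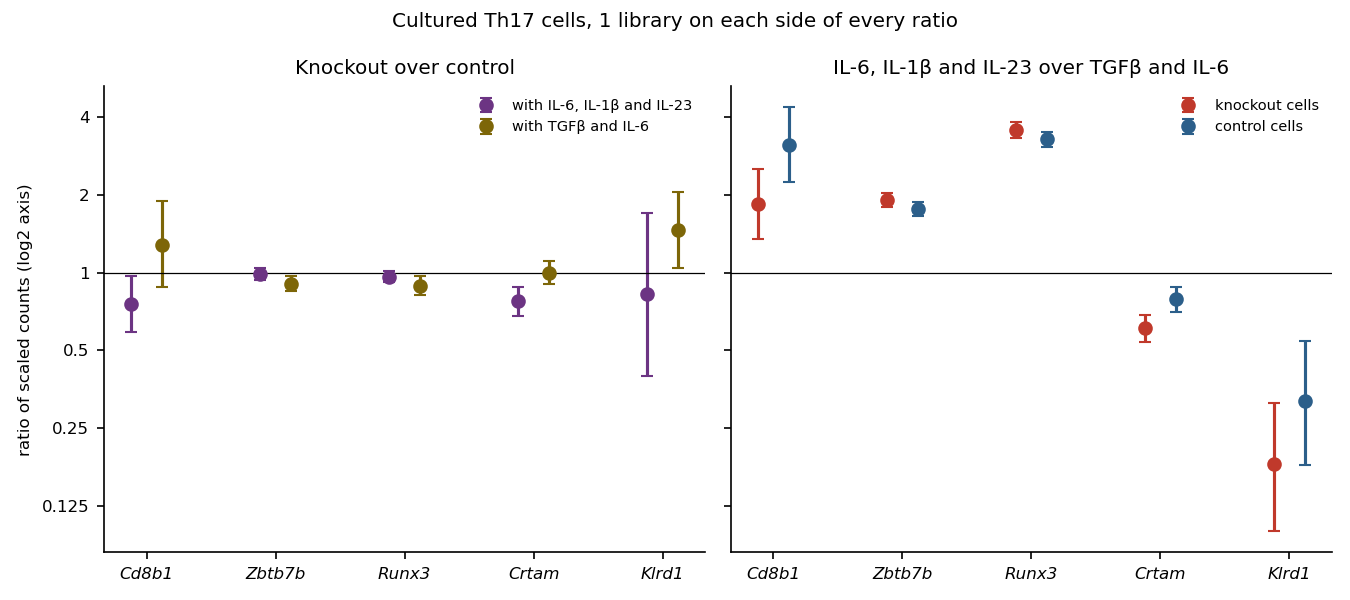
Ratios of TMM-scaled counts between single cultured libraries for the 5 genes with enough counts, on a log2 axis; whiskers are 95% counting intervals. Genotype ratios (left) lie between 0.759 and 1.46, whereas mix ratios (right) run from 0.182 for Klrd1 to 3.56 for Runx3 in knockout cells.

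Set against culture, with genotypes and mixes averaged, the colon had more Klrd1, Crtam and Runx3 and less Cd8b1 and Zbtb7b among the 5 genes counted in both. The log2 difference was 3.74 ± 0.16 (SE) for Klrd1, 0.68 ± 0.07 for Crtam and 0.45 ± 0.06 for Runx3 (edgeR quasi-likelihood, Benjamini-Hochberg adjusted p = 7.11e-12, 4.73e-07 and 5.69e-06). That of Zbtb7b was -0.22 ± 0.07 (adjusted p = 0.00862), and it did not pass without knockout colon replicate 2 (-0.13, adjusted p = 0.0767). Runx3 and Zbtb7b in the colon lay between the levels of the cytokine mixes, apart from knockout replicate 2 of Zbtb7b, which at 79.6 CPM was below both. Mean Cd244 was 12.9-fold a floor of 3 counts per cultured library, set at 0.18 CPM, in knockout and 3.02-fold in control colon cells. The control culture with the IL-23 mix had 2 Cd244 counts, with an upper Poisson limit of 7.22 counts, above the floor. These ratios are therefore not lower bounds, and they leave out the error of the colon counts. Of all 14886 genes tested, 81.5% passed, 40.9% higher and 40.6% lower in the colon.

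Other genes of the same programmes were followed in 6 lists of 82 distinct genes tested in the colon, of which 25 were higher and 23 lower in knockout cells, with a median log2 fold change of 0.02 (all genes 0.013). With library totals in place of TMM, 37 were higher and 16 lower, at a median of 0.22. With TMM, rises and falls were about equal in number, as over all genes tested. Of all 13101 genes tested in the colon, 39.5% passed, 19.6% higher and 19.9% lower, the share to set beside each list below. The 6 lists together held a larger share of calls in both directions, and they were chosen with earlier results of these data known.
Among 17 CD4 and CD8 lineage regulators 3 were higher, 3 lower and 11 did not pass, with a median of -0.04 (6 higher, 1 lower and a median of 0.15 with library totals). Gata3, which promotes the CD4 lineage and type 2 responses, measured 354 and 347 CPM in knockout and 178 in both control colon libraries, a log2 fold change of 0.98 ± 0.08 (SE; edgeR quasi-likelihood, Benjamini-Hochberg adjusted p = 4.67e-06). Tcf7, for TCF-1, fell by 0.53 on the log2 scale (adjusted p = 0.000274). Tox, needed for CD4 T cell development, rose by 0.49 ± 0.09 (adjusted p = 0.00166).
A list of 15 genes covered TGFβ, retinoic acid, interferon, IL-15, IL-6 and IL-27 signals, with Ahr, Tbx21 (for T-bet) and Eomes. Of these 15 genes, 7 were higher, 3 lower and 5 did not pass, with a median of 0.11. With library totals 9 were higher and 2 lower, at a median of 0.30. Il2rb, a receptor chain for IL-2 and IL-15, measured 1230 and 1120 CPM in knockout and 2480 and 2390 CPM in control colon cells, a log2 fold change of -1.05 ± 0.08 (adjusted p = 4.67e-06). The TGFβ receptor gene Tgfbr1 (0.76 ± 0.09, adjusted p = 0.00011) and Il6st (0.74 ± 0.09, adjusted p = 0.000132), for the gp130 chain of IL-6 and IL-27 receptors, rose.

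Of 11 cytotoxic effector genes, 3 were higher, 6 lower and 2 did not pass, with a median of -0.40 (4 higher, 5 lower and a median of -0.20 with library totals). Gzma, for granzyme A, measured 637 and 713 CPM in knockout and 176 and 166 CPM in control colon cells, a log2 fold change of 1.99 ± 0.09 (SE; edgeR quasi-likelihood, Benjamini-Hochberg adjusted p = 5.97e-08). The chemokine genes Ccl4 (-1.13 ± 0.08, adjusted p = 2.26e-06) and Ccl5 (-1 ± 0.08, adjusted p = 7.73e-06) fell. Gzmb, for granzyme B, rose in the colon (0.39 ± 0.08, adjusted p = 0.00205) and was also called in culture (0.77, adjusted p = 0.033), a call that ended with no filter on low counts.
Among 19 NK-type receptors and their partners 6 were higher, 5 lower and 8 did not pass (median 0.23; 10 higher, 5 lower and a median of 0.42 with library totals). Klrk1, for the activating receptor NKG2D, measured 47.3 and 48.1 CPM in knockout and 17.7 and 17.1 CPM in control colon cells, and rose by 1.46 ± 0.10 on the log2 scale (adjusted p = 2.72e-06). Slamf6, of the same family as Cd244, rose by 1.08 ± 0.10 (adjusted p = 1.55e-05), while Klrc1 fell by 1.02 (adjusted p = 2.17e-05).

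Of 7 ligands of these receptors 5 were tested in the colon, with 1 higher and 2 lower (1 higher and 0 lower with library totals). Cd48, the ligand of CD244, rose by 0.36 ± 0.09 on the log2 scale (SE; edgeR quasi-likelihood, Benjamini-Hochberg adjusted p = 0.0106), and did not pass without knockout replicate 2 (adjusted p = 0.0953). The class I genes H2-D1 (-0.30, adjusted p = 0.00949) and H2-K1 (-0.32, adjusted p = 0.0112) fell with TMM but not with library totals (adjusted p = 0.281 and 0.256). H2-K1 also missed the threshold without control replicate 2. These genes resemble each other closely and may share reads. H2-T3, for TL, and Cadm1, the ligand of CRTAM, were too low to test, at 1 to 10 counts per colon library.
Of 15 residence and homing genes, 5 were higher, 4 lower and 6 did not pass (median 0.09; 7 higher, 3 lower and a median of 0.29 with library totals). Gpr15, a receptor that draws T cells to the colon, measured 41.4 and 47.0 CPM in knockout and 7.41 and 8.26 CPM in control colon cells, a log2 fold change of 2.50 ± 0.13 (adjusted p = 2.71e-07). Ccr6 (-1.88 ± 0.15, adjusted p = 7.23e-06) and Cxcr3 (-0.90 ± 0.08, adjusted p = 7.98e-06), chemokine receptor genes of Th17 and Th1 cells, fell. Itgae, for the αE integrin of intraepithelial cells, had a log2 fold change of 0.09 ± 0.08 (adjusted p = 0.353); it was named for its role in this programme after its value was seen.

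**Figure D4:**
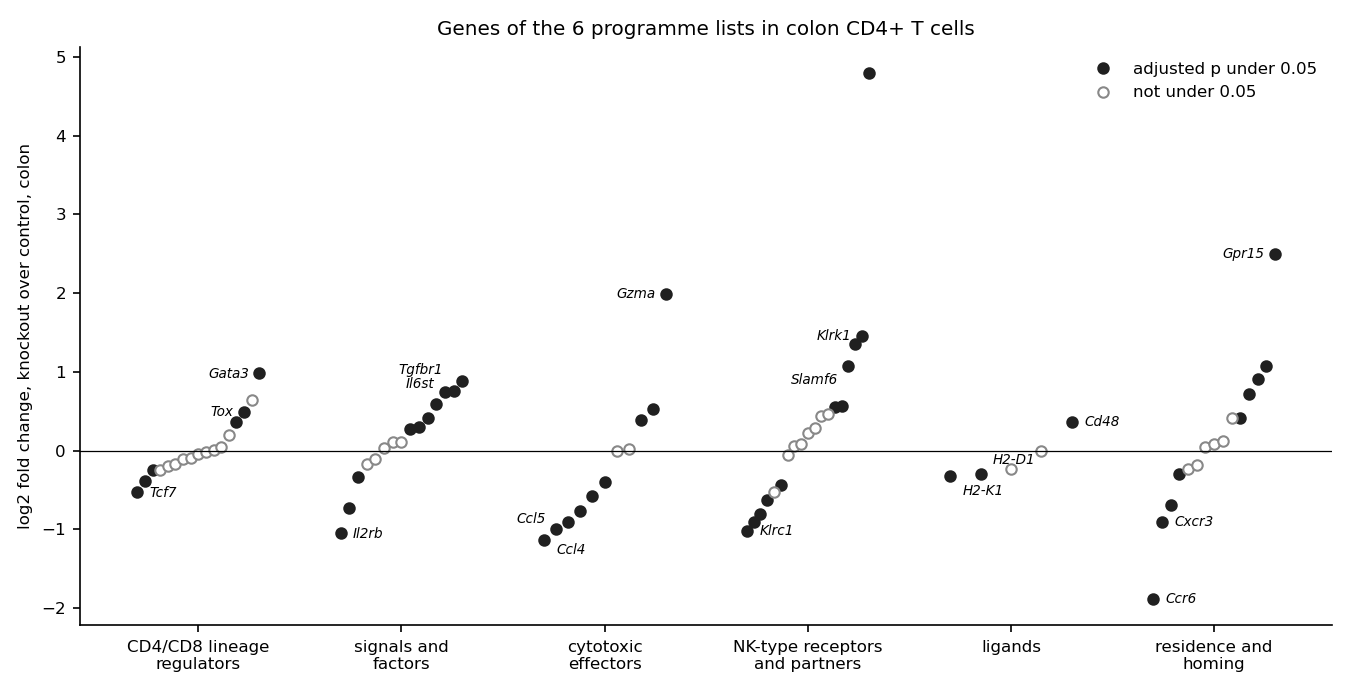
Colon log2 fold changes, knockout over control, of the genes of 6 lists, 1 point per gene, sorted within each list; filled points passed an adjusted p of 0.05. Each list except the ligands holds at least 3 filled points on either side of 0, and the highest point, unlabelled, is Sh2d1b1 at 4.79.

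In culture, 69 genes of these lists were tested, and 35 were higher and 24 lower with the IL-23 mix than with the TGFβ mix (median 0.48, all genes 0.017). Of all genes tested in culture, 69.8% passed between the mixes, 35.8% higher and 34% lower with the IL-23 mix. The chromatin organiser gene Satb1 rose (1.91 ± 0.07, SE) and the methyltransferase gene Dnmt1 fell by 1.51 on the log2 scale. Tgfbr1 measured 22.0 CPM in each genotype with the IL-23 mix, against 253 CPM in knockout and 261 CPM in control cells with the TGFβ mix. Il6st fell by 3.21 on the log2 scale. Gzmb measured 218 CPM in knockout and 130 CPM in control cells with the IL-23 mix, against 17.3 CPM in knockout and 9.84 CPM in control cells with the TGFβ mix. Tigit (3.32), Slamf7 (1.86), B2m (1.34), H2-T23 (0.74), which encodes Qa-1, and S1pr1 (3.35) rose, and Ccl4 fell by 2.76 on the log2 scale. Among them H2-T23 had the highest adjusted p, 1.85e-05 (edgeR quasi-likelihood, Benjamini-Hochberg).

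By Pearson correlation of log2 CPM over all 8 libraries, the genes most like Cd8a among 9924 compared were Lman2 (r = 0.999), Actr1a (0.998), Ablim3 (0.997), Lfng (0.996) and Tox4 (0.996). Those most like Crtam were Art2a-ps (r = 0.988), Ccr8 (0.988), Lmo4 (0.987), Ufd1 (0.985) and Mmd (0.984). The libraries fall into a colon and a culture set, a split these correlations share, so the values are descriptions. Ablim3 resembled Cd8a in level too, at 4.7 and 3.9 CPM in knockout and 32.8 and 31.1 CPM in control colon cells and at most 0.06 CPM in culture. Lman2, by contrast, measured 378 and 388 CPM in knockout and 566 and 571 CPM in control colon cells, and 201 to 205 CPM in culture.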

How the data were processed

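RNA was sequenced from 8 mouse libraries, 4 of colon CD4+ T cells and 4 of cultured Th17 cells. The authors deposited raw read counts per gene, per the file headers, with no normalization. The submitters' processing notes name Trim Galore, Bowtie2, featureCounts, edgeR and DESeq2 with build mm10; their roles and versions, the strand setting and the annotation are not given in the sources used here. Colon files hold 54446 entries and culture files 55341; 53657 genes were joined by unique symbol, after leaving out 27 and 26 symbols turned into dates.

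The genes, lists and tests were chosen with earlier results of these data known. Named list genes are up to 3 per list with the smallest p in the colon fit and up to 2 in the culture fits; for likeness, the 5 with the highest r. A gene that this rule names is not reported here. Genes were tested in R 4.3.3 with edgeR 4.0.16 (filterByExpr, TMM, glmQLFit and glmQLFTest) and Benjamini-Hochberg adjustment over all genes at 0.05. Colon was fitted alone (2 residual degrees of freedom), culture with terms for mix and genotype (1), which takes each as a repeat of the other, and colon against culture over 8 libraries (3). SEs are the log2 fold change divided by the square root of F. CPM uses TMM over all libraries; RPKM uses joined exon lengths of GENCODE M21. Colon replicates differed beyond counting error (chi-square per gene 5.03 in knockout, 6.85 in control). Counting intervals of 95% and the floor of 3 counts (0.171 to 0.268 CPM) cover counting error only. The methods were tested on simulated data. Alternatives were other scalings, no filter, DESeq2 1.42.0, leaving out each colon library, the replicate block and a fit of all libraries. Scaling to Cd4 and to T cell marker counts was added after seeing the data.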

Additional observations from a re-analysis of the deposited data

Results flagged for a closer look

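Under the same contrast, 8 genes among those picked out by the naming rule differed in opposite directions in colon and culture: every knockout library lay on one side of control in the colon and on the other side in both cultures. The difference between colon and culture was not tested, and each culture ratio rests on 1 library per genotype. Other genes of the lists were not searched for this pattern. The share of all genes that shows it was not counted, so the number of genes is a description only. Values are log2 ratios of mean CPM, knockout over control. Tox stood at 0.48 in the colon, -0.12 with the IL-23 mix, and -0.15 with the TGFβ mix. Ccl4 stood at -1.14 in the colon, 1.06 with the IL-23 mix, and 0.02 with the TGFβ mix. H2-D1 stood at -0.31 in the colon, 0.19 with the IL-23 mix, and 0.07 with the TGFβ mix. H2-K1 stood at -0.33 in the colon, 0.14 with the IL-23 mix, and 0.06 with the TGFβ mix. H2-T23 stood at -0.23 in the colon, 0.04 with the IL-23 mix, and 0.03 with the TGFβ mix. It did not pass in the colon fit (adjusted p = 0.0596, edgeR quasi-likelihood, Benjamini-Hochberg). Gpr15 stood at 2.49 in the colon, -1.34 with the IL-23 mix, and -0.37 with the TGFβ mix. Its IL-23 mix value rests on 2 counts in knockout and 5 counts in control cells, near the floor of 3 counts. H2-Ab1 stood at 0.63 in the colon, -0.12 with the IL-23 mix, and -0.46 with the TGFβ mix. Cd74 stood at 0.56 in the colon, -0.10 with the IL-23 mix, and -0.30 with the TGFβ mix. The culture ratios of H2-T23 are close to 0, as are those of Ccl4, H2-K1 and H2-D1 with the TGFβ mix. None of the 8 genes passed for genotype in the culture fit. No group had the 4 libraries needed to look for a library far from the others.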

How the results depend on the processing

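The colon log2 fold change of Cd8a, -3.19, was -2.99 with library totals, -2.99 scaled to Cd4 counts and -2.81 scaled to T cell marker counts, and -3.30 to -3.09 when 1 colon library was left out. The culture genotype count of 4 was 9 with DESeq2 size factors, 9 with library totals, 7 with DESeq2's Wald test, 0 with no filter on low counts and 15 with all 8 libraries in the fit. The colon count of 5173 ranged from 3658 to 6230. With library totals, 77.2% of colon calls were higher in knockout in place of 49.6%, and 40.1% in place of 50.2% for colon over culture. The medians of all genes moved to 0.21 and -0.28.

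Whether colon libraries with the same replicate number were processed together is not given in the sources used here. Same-numbered libraries deviated together with a correlation of 0.153 over genes, from only 2 pairs. The replicate block gave 6230 calls and left Cd8a at -3.19.

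Among the other genes, the colon value of Zbtb7b ranged from -0.75 to -0.17, of Runx3 from -0.60 to -0.09, of Crtam from 0.09 to 0.54, of Klrd1 from 0.35 to 1.05, of Cd244 from 1.97 to 2.49 and of Cd8b1 from -0.81 to 0.03; the cause was not tested. Leaving out a cultured library was not run, since that fit has 1 residual degree of freedom. Depth limits Cd244 and Cd8a in culture, where 3 counts are 0.171 to 0.18 CPM.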

Other observations

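Sh2d1b1, for the adaptor EAT-2 that acts below CD244 and related receptors in NK cells, had 16 and 23 counts in knockout and 1 and 0 counts in control colon libraries, and 0 to 1 in culture (log2 fold change 4.79 ± 0.82, SE; edgeR quasi-likelihood, Benjamini-Hochberg adjusted p = 0.000894). The chemokine gene Xcl1 measured 201 and 208 CPM in knockout and 152 and 133 CPM in control colon cells. With the TGFβ mix Xcl1 measured 10 CPM in knockout and 3.05 CPM in control cells. With the IL-23 mix it was near the floor of 3 counts, at 0.296 CPM (5 counts) in knockout and 0.18 CPM (3 counts) in control cells. Ahr, for a receptor that intraepithelial lymphocytes depend on, measured 176 and 190 CPM in knockout and 132 and 142 CPM in control colon cells. In culture it was at 9.47 CPM in knockout and 10.7 CPM in control cells with the IL-23 mix, against 98.4 CPM in knockout and 95.5 CPM in control cells with the TGFβ mix. These 3 genes were chosen after their values were seen.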
